A study of Mus musculus with 17 samples.

Results

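The metallothionein and zinc transport genes examined here are 7 mouse genes, taken by symbol from the 31091 gene identifiers of the count table: the metallothioneins Mt1 and Mt2, the zinc sensor Mtf1, the zinc exporters Slc30a1 and Slc30a4 and the zinc importers Slc39a10 and Slc39a14. All 7 were found, each as 1 identifier, and all passed the filter on low counts. They were followed in 17 samples of conventional dendritic cells (cDCs) from spleens of female C57BL/6JRj mice aged 8 weeks, in which implanted B16 melanoma cells secreting FLT3 ligand had expanded the cDCs. Spleens of several mice were pooled and enriched for CD11c+ cells, which spent 6 h with medium from TC-1 cells, a mouse lung epithelial tumor line, before cDC1s and cDC2s were sorted. The loading protocol named for these cultures also contains GM-CSF (2 ng/mL). The medium came from TC-1 WT cells (live), from TC-1-iBimS cells, which die by apoptosis when the BH3-only protein BimS is switched on, or from TC-1-iRIPK3 cells, which die by necroptosis when RIPK3 is switched on. The inducer cumate (800 µg/mL, 24 h) was given to all 3 lines, so the WT groups met it as well. The iBimS and iRIPK3 lines are each 1 clone and carry the switch, which the WT line does not, so the type of cell death and the clone cannot be told apart. The paper also reports more uptake of apoptotic than of necroptotic debris, and more uptake in cDC1s than in cDC2s. Cells were sorted for RNA without a label of uptake, so the part of uptake in the differences was not tested. Each group had 3 samples, except cDC2s with RIPK3 medium, which had 2. The comparisons ask how cDC1s and cDC2s respond to apoptotic and to necroptotic tumor cells, here called BimS and RIPK3 debris.

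Metallothioneins are small cysteine-rich proteins that bind zinc and copper and buffer the free ions in the cell. Their genes are switched on when the transcription factor MTF1 (encoded by Mtf1) binds zinc through its zinc fingers and attaches to metal response elements in the DNA, and Slc30a1, the exporter that carries zinc out across the plasma membrane, is a known target of the same factor. Transporters of the SLC30 (ZnT) family move zinc out of the cytosol, and those of the SLC39 (ZIP) family move it in. Immune cells, dendritic cells among them, are known to shift these transporters when they are activated.

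Each sample held between 16095159 and 21645289 reads on genes (median 18986002). The level of a gene is its CPM, the count relative to the library size after TMM normalization over all samples, and group values are mean ± SD. Changes are log2 fold changes (log2FC) with standard errors (SE) from edgeR's quasi-likelihood test. A gene was called where its P-value, after Benjamini-Hochberg adjustment across every gene in the fit, was under 0.05. The labels do not say whether samples of a group came from separate cultures, so the p-values measure the spread between these samples, which may be technical. In sorted bulk samples, fewer cells that express a gene and less of its RNA per cell cannot be told apart. The sorted populations were checked against marker genes. The 5 cDC1 genes (Xcr1, Clec9a, Cadm1, Itgae and Wdfy4) summed to between 1160 and 1341 CPM in cDC1s and between 47.2 and 84.0 CPM in cDC2s. The 5 cDC2 genes (Sirpa, Clec10a, Cd209a, Itgam and Clec4a4) summed to between 1.78 and 3.76 CPM in cDC1s and between 272 and 338 CPM in cDC2s.

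Because MTF1 acts through short DNA elements, the sequence upstream of the members was searched for the core of the metal response element. The core was written as TGCACNC and TGCGCNC and sought on both strands, in windows of 300 bases that reach from 250 bases before to 50 bases after the RefSeq start of each gene (GRCm38.p6). Windows were at hand for Mt1, Mt2, Mtf1, Slc30a1, Slc30a4 and Slc39a10, and Slc39a14 was not searched. The Mt1 window held 3 cores, that of Mt2 4, that of Slc30a1 2 and that of Slc30a4 3. No core was found in the windows of Mtf1 and Slc39a10. Of all 32851 windows of this length, 25.7% held at least 1 core, 7.11% at least 2, 1.97% at least 3 and 0.517% at least 4. Such a match is a description of the letters and not a measured binding site. The neighbouring genes Mt2 and Mt1 lie in this order on the plus strand of chromosome 8. Stretches that precede their RefSeq starts are shown with the cores in capitals, for Mt1 from chr8:94905467-94905709 and for Mt2 from chr8:94898996-94899131 (GRCm39 positions, plus strand). That of Mt1 ends where the annotated gene begins. That of Mt2 lies inside the annotated gene, in an intron of its longest transcripts and before the first exon of the others:
Mt1: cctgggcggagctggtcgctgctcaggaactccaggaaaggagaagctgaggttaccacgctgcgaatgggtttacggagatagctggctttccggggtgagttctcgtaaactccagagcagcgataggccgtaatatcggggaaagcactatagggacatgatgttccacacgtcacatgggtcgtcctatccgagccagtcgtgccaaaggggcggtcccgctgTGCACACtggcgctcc
Mt2: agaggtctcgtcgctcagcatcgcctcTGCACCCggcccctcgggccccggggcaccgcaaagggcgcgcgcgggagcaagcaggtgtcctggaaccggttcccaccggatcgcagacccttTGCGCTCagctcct

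The other cores of the metallothioneins and those of Slc30a1 lie nearer to or behind the RefSeq start. Bases outside the windows were not searched. These cores are printed with 7 bases on either side, on the strand on which the core reads TGCACNC or TGCGCNC. Both cores of Slc30a1 and both of those shown for Mt2 read on the strand opposite to the gene. The number is the position of the first base of the core from the RefSeq start:
Mt1 at 3: ggagctcTGCACTCcgcccga
Mt1 at 21: cgaaaagTGCGCTCggctctg
Mt2 at -50: cagagccTGCACACgccctcc
Mt2 at 5: ctgggccTGCGCACgacccga
Slc30a1 at -43: tttgcttTGCACTCggaaccc
Slc30a1 at 31: cggcgacTGCGCTCggcccgg

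Mt1 (ENSMUSG00000031765, chromosome 8 from 94905710 to 94906955 of GRCm39) encodes the more abundant of the classical metallothioneins in these cells and rose in cDC1s with debris, most with BimS. Its level in cDC1s was 15.6, 15.0 and 13.1 CPM with WT medium, 29.0, 26.5 and 30.0 CPM with BimS debris and 18.9, 16.8 and 18.2 CPM with RIPK3 debris. None of the 3 groups overlapped. The mean rose from 14.6 ± 1.29 CPM (n = 3) to 28.5 ± 1.80 CPM with BimS, a log2FC of 0.97 (SE 0.0846, adjusted p = 3.10e-11). With RIPK3 it was 17.98 ± 1.10 CPM, a log2FC of 0.30 (SE 0.0888, adjusted p = 0.0132), and this call was lost without WT replicate 3 (adjusted p = 0.133), without RIPK3 replicate 1 (adjusted p = 0.0631) and with limma on unnormalised log2 counts (adjusted p = 0.379). Between the debris types, Mt1 was lower with RIPK3 than with BimS, with a log2FC of -0.66 (SE 0.0833, adjusted p = 2.01e-06).

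In cDC2s the level of Mt1 was several times lower. It was 2.87, 3.79 and 3.78 CPM with WT medium, 3.83, 6.66 and 7.69 CPM with BimS debris and 4.53 and 3.81 CPM with RIPK3 debris. The lowest BimS sample lay just above the highest WT sample. The change with BimS was 0.81 (SE 0.217, adjusted p = 0.0280), positive in 3 of 3 pairs of equal replicate number. It lost its call in 5 of the 8 fits that left out 1 cDC2 sample (WT replicates 1 and 2, BimS replicates 2 and 3 and RIPK3 replicate 1), down to 0.61 (adjusted p = 0.139) without BimS replicate 3. With RIPK3 the log2FC was 0.25 (SE 0.256, adjusted p = 0.696), and between 0.13 and 0.38 in the fits without 1 cDC2 sample. The subsets differed with WT medium by 2.07 (SE 0.162, adjusted p = 1.62e-11), 14.6 against 3.48 CPM. The responses of the subsets were also compared directly, through the interaction of cell type and medium: for Mt1 it was 0.16 (SE 0.226, adjusted p = 0.933) for BimS and 0.04 (SE 0.258, adjusted p = 0.990) for RIPK3.

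Mt2 (ENSMUSG00000031762, chromosome 8 from 94898819 to 94900207), the second classical metallothionein gene, was scarce. In cDC1s it was measured at 1.10, 2.34 and 1.12 CPM with WT medium, 2.95, 2.20 and 3.15 CPM with BimS debris and 1.52, 1.10 and 1.44 CPM with RIPK3 debris. The highest WT sample lay within the BimS group, so these groups overlapped. The log2FC with BimS was 0.87 (SE 0.250, adjusted p = 0.0144), which lost its call without WT replicate 1 (adjusted p = 0.110), WT replicate 3 (adjusted p = 0.114) or BimS replicate 3 (adjusted p = 0.0768). Without WT replicate 2, the high sample, it rose to 1.31. With RIPK3 the log2FC was -0.16 (SE 0.284, adjusted p = 0.808), and against BimS it was -1.03 (SE 0.258, adjusted p = 0.0150), a call lost without BimS replicate 3 (adjusted p = 0.0846) or RIPK3 replicate 2 (adjusted p = 0.0833). In cDC2s the counts were 1, 0 and 5 reads with WT medium, 5, 6 and 3 with BimS debris and 2 and 2 with RIPK3 debris, too few for a fold change between media. With WT medium, Mt2 was higher in cDC1s than in cDC2s by 3.72 (SE 0.520, adjusted p = 6.24e-07). The call was kept in all 17 fits without 1 sample, while the size, which rests on few cDC2 reads, ran from 3.20 without cDC2 WT replicate 2 to 5.49 without cDC2 WT replicate 3. Of the reads of Mt1 and Mt2 together, Mt1 held between 86.5% and 93.8% in cDC1s and between 92.6% and 100% in cDC2s. No run of 54 bases, the read length, in the transcripts of either gene occurs in a transcript of another gene of the annotation GENCODE M39.

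**Figure D1:**
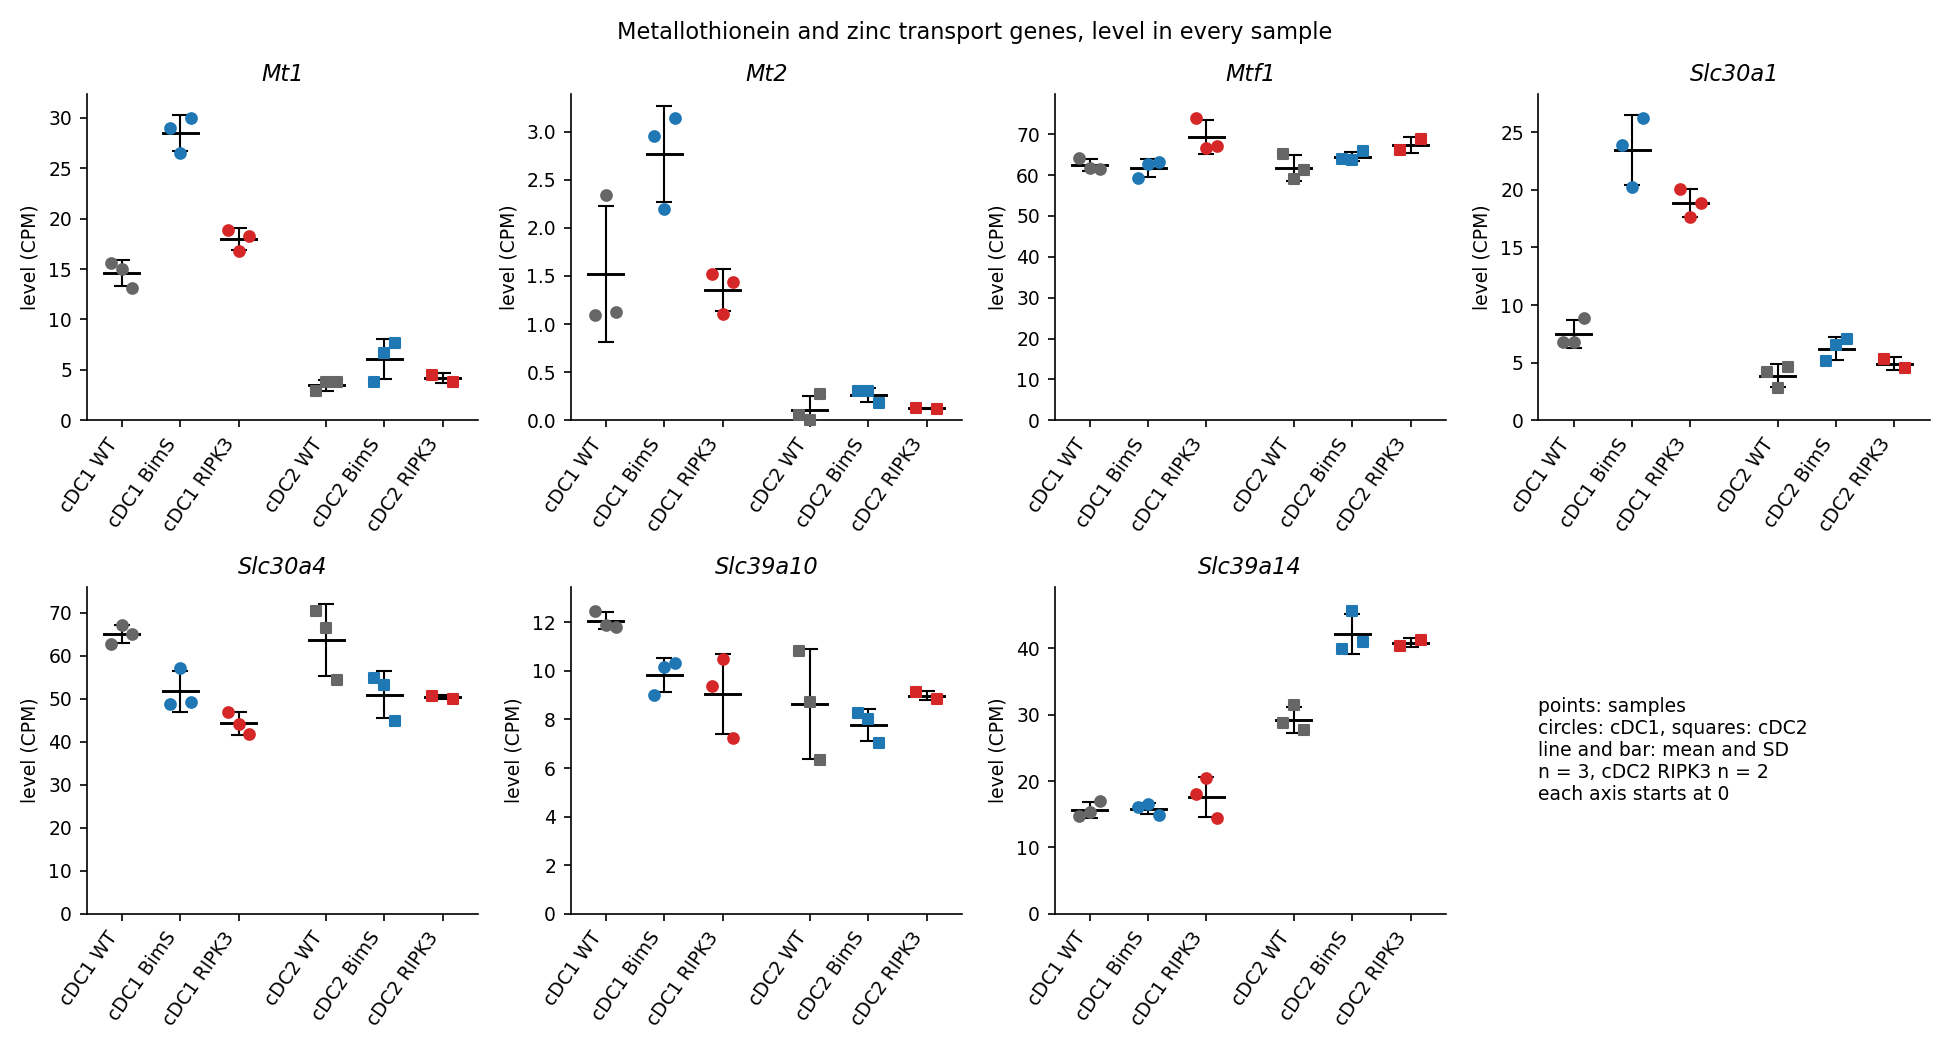
The level of each of the 7 genes (CPM, axes from 0) in every sample, by cell type and medium, with a line at the mean and a bar for the SD. Mt1 and Slc30a1 stood highest in the cDC1 samples with BimS debris (26.5 to 30.0 and 20.2 to 26.2 CPM), Slc39a14 in the cDC2 samples with debris (39.9 to 45.6 CPM), and Mtf1 stayed between 59.0 and 74.1 CPM in all 17 samples.

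Slc30a1 (ENSMUSG00000037434, chromosome 1 from 191638808 to 191645361), the plasma membrane zinc exporter ZnT1, showed the largest change with debris of the 7 genes in cDC1s. The samples were at 6.82, 6.77 and 8.85 CPM with WT medium, 23.8, 20.2 and 26.2 CPM with BimS debris and 20.0, 17.6 and 18.8 CPM with RIPK3 debris. Every debris sample lay above every WT sample. The log2FC was 1.64 (SE 0.108, adjusted p = 1.11e-13) with BimS and 1.32 (SE 0.111, adjusted p = 2.57e-11) with RIPK3, and both stayed called in every alternative fit. Between the debris types, RIPK3 against BimS gave -0.31 (SE 0.0973, adjusted p = 0.0618). With a replicate block (replicate number as a further term) this difference was called (adjusted p = 0.00325), as it was without the filter on low counts (adjusted p = 0.0154). It was also called in 3 of the 9 fits without 1 cDC1 sample. These left out WT replicate 3 (adjusted p = 0.0379), BimS replicate 2 (adjusted p = 0.0104) or RIPK3 replicate 1 (adjusted p = 0.0396). Without BimS replicate 3 it was -0.23 (adjusted p = 0.372).

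In cDC2s, Slc30a1 was at 4.21, 2.81 and 4.64 CPM with WT medium, 5.11, 6.51 and 7.04 CPM with BimS debris and 5.30 and 4.51 CPM with RIPK3 debris. The BimS samples lay above the WT samples, and a RIPK3 sample lay among the WT samples. The log2FC with BimS was 0.67 (SE 0.188, adjusted p = 0.0337). It lost its call in 5 of the 8 fits without 1 cDC2 sample (WT replicate 2, BimS replicates 2 and 3 and both RIPK3 samples), down to 0.50 (adjusted p = 0.1997) without WT replicate 2, and with limma on unnormalised log2 counts (adjusted p = 0.0653). With RIPK3 it was 0.32 (SE 0.218, adjusted p = 0.498). The interaction of cell type and medium was called for this gene by edgeR. The log2FC in cDC1s exceeded that in cDC2s by 0.97 (SE 0.221, adjusted p = 0.0258) for BimS and by 1.00 (SE 0.244, adjusted p = 0.0344) for RIPK3, for which the log2FC in cDC2s was not called. Of all genes tested, 0.87% were called in the interaction for BimS, 0.561% with the greater log2FC in cDC1s, and 1.14% in that for RIPK3, 0.66% with the greater log2FC in cDC1s. Leaving out 1 of the 17 samples gave between 0.82 and 1.14 for BimS, no longer called in 7 of 17 fits, and between 0.86 and 1.18 for RIPK3, no longer called in 8 of 17. With WT medium the gene was already higher in cDC1s, by 0.94 (SE 0.165, adjusted p = 2.09e-05).

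**Figure D2:**
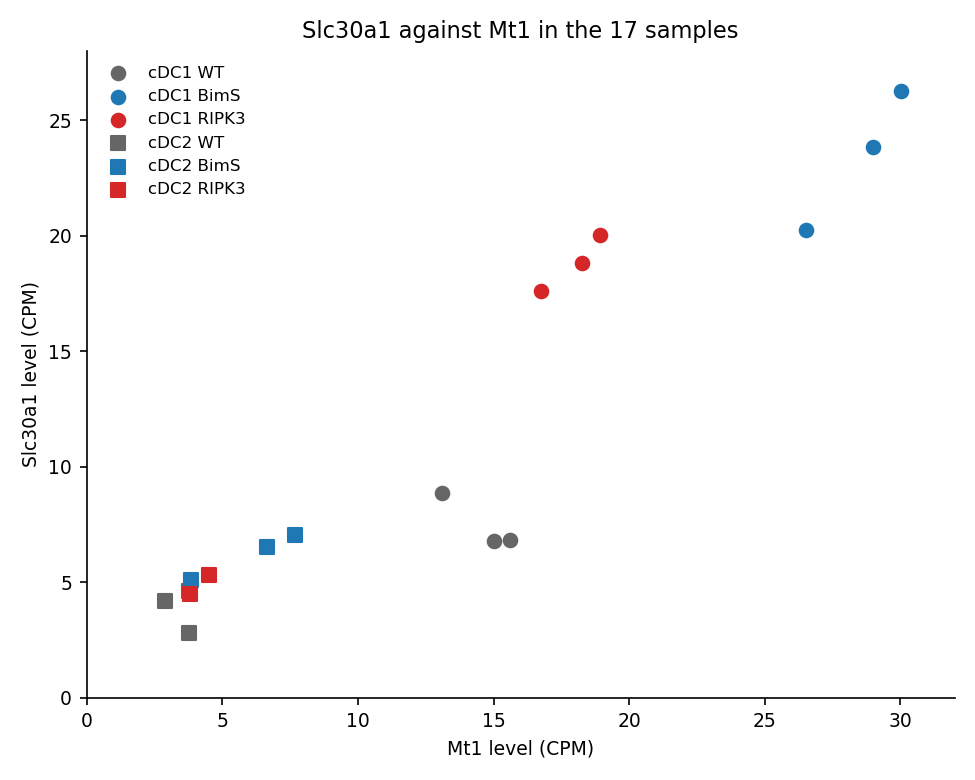
The level of Slc30a1 against that of Mt1 (both in CPM, axes from 0) in the 17 samples; circles are cDC1s, squares cDC2s, and colors give the medium. The cDC1 samples with RIPK3 debris stood near those with WT medium in Mt1 (16.8 to 18.9 against 13.1 to 15.6 CPM) and near those with BimS debris in Slc30a1 (17.6 to 20.0 against 20.2 to 26.2 CPM).

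Mtf1 (ENSMUSG00000028890, chromosome 4 from 124695897 to 124743593), which encodes the zinc-sensing transcription factor, moved little. The cDC1 samples were at 64.2, 61.8 and 61.5 CPM with WT medium, 59.2, 62.8 and 63.1 CPM with BimS debris and 74.1, 66.7 and 67.1 CPM with RIPK3 debris. The RIPK3 samples lay above all others. The log2FC with RIPK3 was 0.15 (SE 0.0578, adjusted p = 0.0781) against WT and 0.17 (SE 0.0579, adjusted p = 0.106) against BimS. With the replicate block both were called (adjusted p = 0.0274 and 0.0256), as they were without RIPK3 replicate 3 (adjusted p = 0.0378 and 0.0438). Without RIPK3 replicate 1 they were 0.0958 (adjusted p = 0.375) and 0.119 (adjusted p = 0.348). With BimS against WT the log2FC was -0.02 (SE 0.0579, adjusted p = 0.907). In cDC2s the range was 59.0 to 65.3 CPM with WT medium, 63.8 to 65.9 CPM with BimS and 66.0 to 68.7 CPM with RIPK3 debris, with log2FCs of 0.06 (SE 0.0819, adjusted p = 0.781) and 0.12 (SE 0.0915, adjusted p = 0.577), which turned negative with limma on unnormalised counts. The subsets differed by 0.02 (SE 0.0657, adjusted p = 0.872) with WT medium.

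Slc30a4 (ENSMUSG00000005802, chromosome 2 from 122523004 to 122544845), the vesicular exporter ZnT4 that is known for loading zinc into milk, fell in cDC1s. It was at 62.9, 67.2 and 65.1 CPM with WT medium, 48.7, 57.3 and 49.2 CPM with BimS debris and 47.0, 44.1 and 41.7 CPM with RIPK3 debris. All 3 groups were apart, in the order WT, BimS, RIPK3. The log2FC was -0.33 (SE 0.0642, adjusted p = 0.000246) with BimS and -0.55 (SE 0.0652, adjusted p = 2.50e-08) with RIPK3. Between the debris types it was -0.22 (SE 0.0661, adjusted p = 0.0435), a call that was lost with DESeq2 (adjusted p = 0.0703), with limma (adjusted p = 0.134) and in 6 of the 9 fits without 1 cDC1 sample (replicates 1 and 3 of WT, 2 and 3 of BimS and 2 and 3 of RIPK3), where it came to -0.14 (adjusted p = 0.381) without BimS replicate 2.

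In cDC2s, Slc30a4 was at 70.4, 66.5 and 54.4 CPM with WT medium, 54.9, 53.2 and 44.8 CPM with BimS debris and 50.8 and 50.045 CPM with RIPK3 debris. WT replicate 3 was low, and the WT and BimS groups overlapped through it. The log2FCs were negative as in cDC1s but not called, -0.33 (SE 0.105, adjusted p = 0.0723) with BimS and -0.35 (SE 0.119, adjusted p = 0.0894) with RIPK3. With the replicate block both were called, at -0.32 (adjusted p = 1.14e-07) and -0.45 (adjusted p = 3.84e-10), as they were without the filter on low counts (adjusted p = 0.0302 and 0.0403). Without WT replicate 3 they were -0.43 (adjusted p = 0.00286) and -0.46 (adjusted p = 0.00377). Limma on unnormalised log2 counts called the change with RIPK3 (-0.52, adjusted p = 0.0187) and not that with BimS (-0.39, adjusted p = 0.0791). The level was lower with debris in every pair of equal replicate number. The interaction was -0.01 (SE 0.125, adjusted p = 1.00) for BimS and -0.21 (SE 0.134, adjusted p = 0.733) for RIPK3, and the subsets differed by 0.03 (SE 0.0875, adjusted p = 0.824) with WT medium.

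Slc39a14 (ENSMUSG00000022094, chromosome 14 from 70540678 to 70588914), the importer ZIP14, which also carries iron and manganese, was the only one of the 7 called higher in cDC2s than in cDC1s. In cDC2s it was at 28.7, 31.4 and 27.7 CPM with WT medium, 39.9, 45.6 and 41.0 CPM with BimS debris and 40.4 and 41.3 CPM with RIPK3 debris. All debris samples lay above the WT samples, and the debris types overlapped. The log2FC was 0.53 (SE 0.0942, adjusted p = 0.000990) with BimS and 0.47 (SE 0.105, adjusted p = 0.00654) with RIPK3, of which the latter lost its call without either RIPK3 sample (adjusted p = 0.0628 and 0.0972) and with limma (adjusted p = 0.283). In cDC1s it was at 14.7, 15.4 and 17.0 CPM with WT medium, 16.0, 16.5 and 15.0 CPM with BimS and 18.007, 20.4 and 14.4 CPM with RIPK3 debris, so all 3 groups overlapped. The log2FCs there were 0.01 (SE 0.101, adjusted p = 0.973), negative with limma, and 0.17 (SE 0.1005, adjusted p = 0.302), which was called without RIPK3 replicate 3 (0.29, adjusted p = 0.0262) and was 0.0464 (adjusted p = 0.875) without RIPK3 replicate 2. With WT medium, cDC1s against cDC2s gave -0.90 (SE 0.0996, adjusted p = 9.71e-09), lower in cDC1s. Cell type and medium gave an interaction of -0.52 for BimS (SE 0.140, adjusted p = 0.0848), which was called with the replicate block (adjusted p = 0.00970), with DESeq2 (adjusted p = 0.0287) and without the filter on low counts (adjusted p = 0.0174). The interaction for RIPK3 was -0.31 (SE 0.147, adjusted p = 0.553).

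Slc39a10 (ENSMUSG00000025986, chromosome 1 from 46845872 to 46964964), the plasma membrane importer ZIP10, was lower in cDC1s with RIPK3 debris. The samples were at 12.5, 11.9 and 11.8 CPM with WT medium, 9.01, 10.1 and 10.3 CPM with BimS debris and 9.36, 10.5 and 7.25 CPM with RIPK3 debris. All debris samples lay below the WT samples. The log2FC was -0.41 (SE 0.115, adjusted p = 0.00942) with RIPK3, which lost its call without RIPK3 replicate 3 (-0.28, adjusted p = 0.0921). With BimS it was -0.29 (SE 0.113, adjusted p = 0.0842), and it was called with the replicate block (adjusted p = 0.0247). In cDC2s the WT samples spread from 6.31 to 10.8 CPM and enclosed all 5 debris samples, which lay between 7.04 and 9.12 CPM. The log2FCs there were -0.15 (SE 0.166, adjusted p = 0.716) with BimS and 0.05 (SE 0.185, adjusted p = 0.946) with RIPK3, of which the latter was -0.08 with the replicate block and -0.09 with limma. With WT medium, cDC1s were above cDC2s by 0.48 (SE 0.142, adjusted p = 0.00615), a call that was lost without cDC2 WT replicate 3 (adjusted p = 0.0711).

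**Figure D3:**
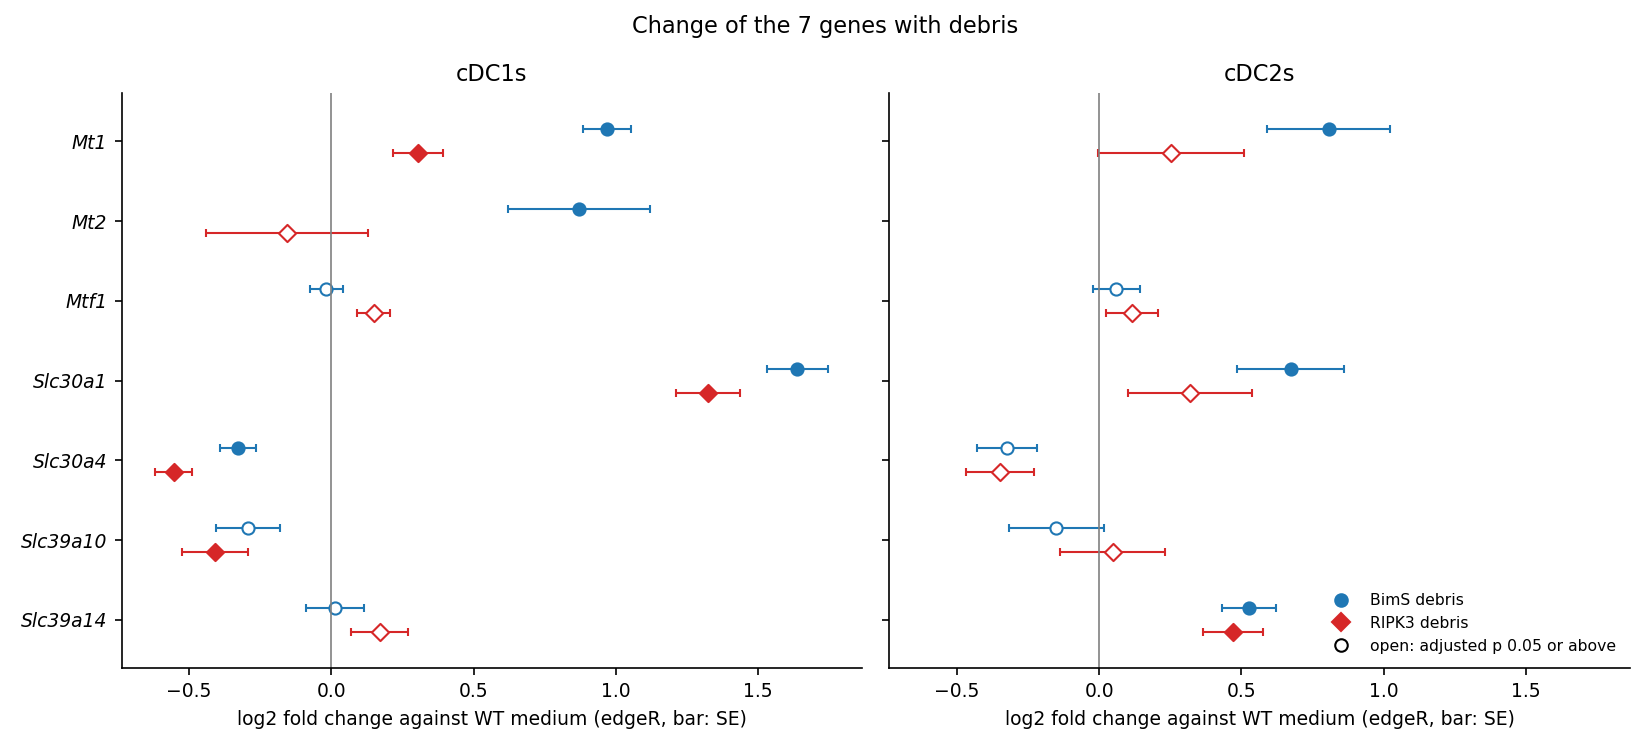
The log2FC of each of the 7 genes against WT medium (edgeR, bars are standard errors) in cDC1s (left) and cDC2s (right), with BimS debris as circles and RIPK3 debris as diamonds; filled symbols have an adjusted p under 0.05, and Mt2 is left out in cDC2s, where it had 0 to 6 reads per sample. Slc30a1 stood at 1.64 and 1.32 in cDC1s, and Slc30a4 lay below 0 in all 4 comparisons.

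By count, BimS debris changed 4 of the 7 genes in cDC1s, where 13.2% of all genes tested were called. Mt1, Mt2 and Slc30a1 were higher (7.31% of all genes were called higher) and Slc30a4 was lower (5.89% were called lower). RIPK3 debris changed 4 as well, where 16.5% of all genes were called, with Mt1 and Slc30a1 higher (8.34% of all genes) and Slc30a4 and Slc39a10 lower (8.19%). Between the debris types 3 genes were called, Mt1, Mt2 and Slc30a4, all lower with RIPK3, where 4.15% of all genes were called and 2.21% were called lower. In cDC2s, BimS debris changed 3 genes upwards, Mt1, Slc30a1 and Slc39a14, where 7.01% of all genes were called and 3.8% were called higher. RIPK3 debris changed Slc39a14 alone, upwards, where 7.21% of all genes were called and 3.93% were called higher. None of the 7 was called by edgeR between RIPK3 and BimS debris in cDC2s (0 with DESeq2, limma and the replicate block as well), where 0.379% of all genes were called. There, 1 of the 7 had an unadjusted p under 0.05, Mt1, with -0.55 (SE 0.244, unadjusted p = 0.0352 from edgeR's model, adjusted p = 0.543).

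The replicate block raised the calls over all genes as well. With it, 5 of the 7 were called in cDC1s with BimS debris, where 17.9% of all genes were, 5 with RIPK3 debris, where 21% were, and 5 between the debris types, where 8.87% were. In cDC2s, 4 were called with BimS debris, where 21.3% of all genes were, 2 with RIPK3 debris, where 21.4% were, and 0 between the debris types, where 14.3% were. Without the block, the median log2FC of the 7 was 0.01, 0.15, 0.53 and 0.17 for cDC1s with BimS, cDC1s with RIPK3, cDC2s with BimS and cDC2s with RIPK3, and that of all genes tested was 0.00, -0.01, -0.02 and -0.02. The medians in cDC2s include the fitted value of Mt2, which rests on few reads, and the last of them is that value itself. The comparisons against WT share the WT samples of a cell type.

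Counted by samples alone, the groups were apart in CPM for 4 of the 7 genes with BimS debris against WT in cDC1s (Mt1, Slc30a1, Slc30a4 and Slc39a10), where 29.5% of all genes were apart, and for 5 with RIPK3 debris (the same and Mtf1), where 29.9% were. RIPK3 and BimS debris were apart for 5 in cDC1s, against 19.2% of all genes. In cDC2s the groups were apart for 3 genes with BimS debris, against 23% of all genes. With RIPK3 debris, which had only 2 samples, they were apart for 4, against 34.1% of all genes, and RIPK3 and BimS debris were apart for 3, against 26.8%.

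In the comparison of the subsets with WT medium, 5 of the 7 genes were called, where 46.2% of all genes were. The samples of the subsets were apart for the same 5, where 52.5% of all genes were apart. Mt1, Mt2, Slc30a1 and Slc39a10 were higher in cDC1s and Slc39a14 in cDC2s. To compare genes, levels were taken per kb of exon length, joined over all annotated transcripts. For Mt1 this length equals the whole gene (1246 bases), introns included, which lowers its value. The lengths of the other members, from 950 bases (Mt2) to 12175 bases (Slc39a10), can also exceed that of any 1 transcript. The places of all members hold for these lengths only. By this measure, Mt1 (11.7 ± 1.04 CPM per kb) and Slc30a4 (11.0 ± 0.364) were the highest members in cDC1s and did not differ beyond their spread. Mtf1 followed with 6.87 ± 0.162, then Mt2 with 1.60 ± 0.748, Slc30a1 with 1.32 ± 0.209, Slc39a14 with 1.30 ± 0.0972 and Slc39a10 with 0.990 ± 0.0284. Of these, Mt2, Slc30a1 and Slc39a14 lay within their spread of each other, and Slc39a10 lay within the spread of Mt2. In cDC2s the order was Slc30a4 (10.8 ± 1.42 CPM per kb), Mtf1 (6.79 ± 0.349), Mt1 (2.79 ± 0.421), Slc39a14 (2.42 ± 0.161), Slc39a10 (0.708 ± 0.186), Slc30a1 (0.686 ± 0.169) and Mt2 (0.113 ± 0.151). There, Mt1 and Slc39a14, and likewise Slc39a10 and Slc30a1, did not differ beyond their spread.

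The other genes of zinc handling were taken from a list of 22 (Mt3, Mt4 and the remaining SLC30 and SLC39 genes), of which 20 are in the table. Of these, 15 passed the filter on low counts in cDC1s and 17 in cDC2s. In cDC1s, 3 of the 15 were called higher with BimS debris and none lower (7.31% and 5.89% of all genes were), and 3 were called higher and 2 lower with RIPK3 debris (8.34% and 8.19% of all genes). In cDC2s, 1 of the 17 was called higher with BimS, where 3.8% of all genes were, and 1 higher and 1 lower with RIPK3, where 7.21% of all genes were called in either direction. Their median log2FCs were 0.00, -0.09, -0.04 and -0.09 in the same order of comparisons as above. The genes below the filter in cDC1s (Slc30a2, Slc30a3, Slc30a10, Slc39a5 and Slc39a12) had at most 4 reads in any of the 17 samples.

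Slc39a4, the importer ZIP4 that is known for zinc uptake in the gut, was the only gene of this list called in all 4 comparisons against WT. In cDC1s its reads numbered 3, 6 and 8 with WT medium, 33, 26 and 32 with BimS debris and 46, 46 and 29 with RIPK3 debris. In cDC2s they numbered 13, 29 and 26 with WT medium, 62, 56 and 66 with BimS and 38 and 45 with RIPK3 debris. In both subsets every debris sample was above every WT sample. The log2FCs were 2.44 (SE 0.357, adjusted p = 2.72e-06) and 2.92 (SE 0.339, adjusted p = 1.89e-08) in cDC1s, and 1.50 (SE 0.268, adjusted p = 0.000972) and 1.04 (SE 0.310, adjusted p = 0.0483) in cDC2s. The last of these lost its call in 6 of the 8 fits without 1 cDC2 sample (WT replicate 1 and every debris sample), down to 0.73 (adjusted p = 0.163) without WT replicate 1. The interaction of cell type and medium for Slc39a4 was 0.93 (SE 0.477, adjusted p = 0.625) for BimS and 1.87 (SE 0.487, adjusted p = 0.0555) for RIPK3. Even at its highest, in cDC2s with BimS debris, its level was 3.52 ± 0.587 CPM (n = 3).

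Mt3, a metallothionein known from the brain, had 3, 0 and 0 reads in the cDC1 samples with WT medium, 23, 16 and 20 with BimS debris and 24, 17 and 14 with RIPK3 debris. The summed reads were 59 against 3 with BimS, a ratio of 20.2 with an exact 95% counting interval (Clopper-Pearson) from 6.58 to 101, and 55 against 3 with RIPK3, a ratio of 19.9 with an interval from 6.47 to 99.5. The intervals cover counting error only, since the reads carry no molecular identifiers. All 3 reads with WT medium came from replicate 1, and without it no ratio can be given. By edgeR the gene was called in both comparisons (adjusted p = 2.83e-06 and 2.82e-06), and in all 9 fits without 1 cDC1 sample (adjusted p of at most 4.31e-05 and 4.25e-05). In cDC2s it had 0 reads in all 3 WT samples, 2, 1 and 8 with BimS and 0 and 1 with RIPK3 debris, and neither comparison was called (adjusted p = 0.0738 and 0.601). For cDC2s, the study lists MT3, MT2A and SLC39A4 among genes upregulated in its BimS-enriched modules. It used its own limits on fold and P-value there.

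**Figure D4:**
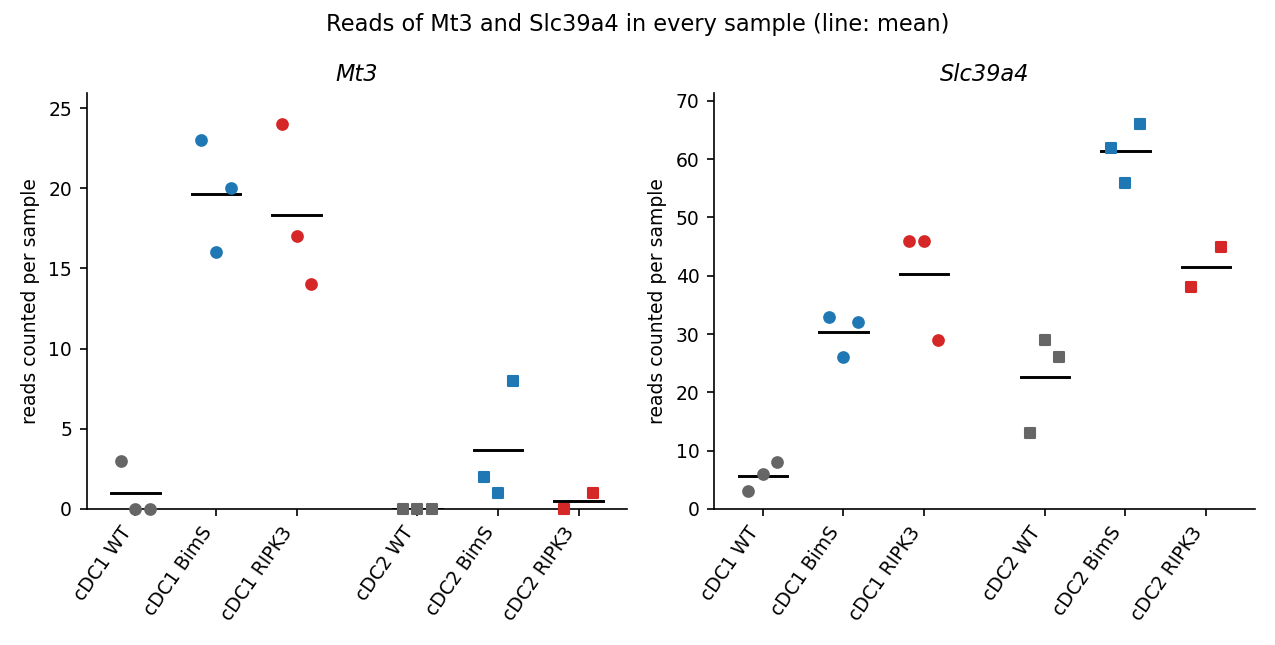
The reads counted for Mt3 and Slc39a4 in every sample (axes from 0), by cell type and medium, with a line at the mean. Mt3 had 14 to 24 reads in the cDC1 samples with debris and at most 3 with WT medium, and Slc39a4 had 26 to 46 against 3 to 8 reads.

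The remaining calls in the list were smaller. Slc30a5, a transporter of the early secretory pathway, rose in cDC1s from 46.1 ± 2.54 CPM (n = 3) to 52.6 ± 1.50 CPM with BimS and 52.7 ± 1.76 CPM with RIPK3 debris, both log2FCs of 0.19 (adjusted p = 0.0299 and 0.0222), which were lost in 5 and 4 of the 9 fits without 1 cDC1 sample (WT replicates 2 and 3, with each BimS sample for BimS and RIPK3 replicates 1 and 2 for RIPK3) and with limma (adjusted p = 0.538 and 0.746). Slc39a1, a plasma membrane importer, went from 108 ± 1.01 to 90.9 ± 1.67 CPM with RIPK3 debris, a log2FC of -0.25 (SE 0.0506, adjusted p = 0.000376). Slc39a7, which releases zinc from the endoplasmic reticulum, went from 17.9 ± 0.371 to 14.2 ± 0.730 CPM with RIPK3 debris, a log2FC of -0.33 (SE 0.0975, adjusted p = 0.0152), lost without WT replicate 3 (adjusted p = 0.0569). In cDC2s with RIPK3 debris, Slc39a13 went from 16.7 ± 1.77 (n = 3) to 12.3 ± 0.490 CPM (n = 2), a log2FC of -0.45 (SE 0.134, adjusted p = 0.0484), and this call was lost with DESeq2 (adjusted p = 0.0719), with RLE size factors (adjusted p = 0.0593) and in 6 of the 8 fits without 1 cDC2 sample (WT replicates 2 and 3, BimS replicates 1 and 2 and both RIPK3 samples).

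**Figure D5:**
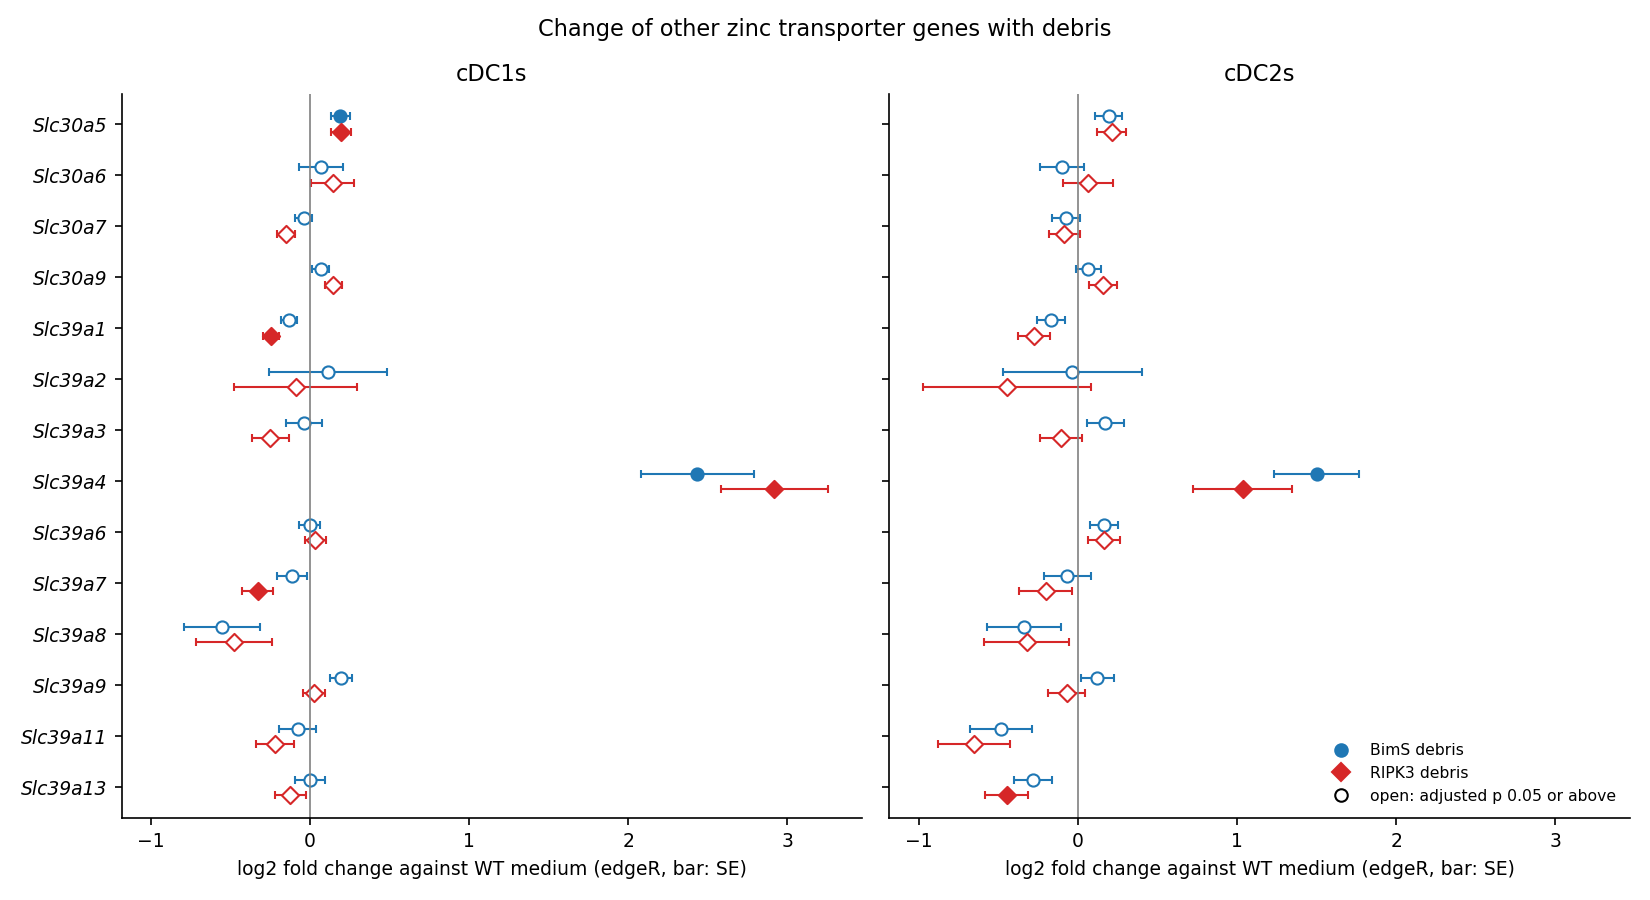
The log2FC against WT medium (edgeR, bars are standard errors) of the 14 other zinc transporter genes tested in both cell types, with BimS debris as circles and RIPK3 debris as diamonds; filled symbols have an adjusted p under 0.05. Slc39a4 stood apart at 2.44 and 2.92 in cDC1s and 1.50 and 1.04 in cDC2s, and each of the other filled symbols lay within 0.45 of 0.

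Metallothioneins also bind copper, and 8 genes of copper handling (Slc31a1, Slc31a2, Atp7a, Atp7b, Atox1, Ccs, Cox17 and Commd1) were followed beside them. All 8 were tested, and 1 was called in the 4 comparisons against WT, lower with RIPK3 debris in cDC1s, where 8.19% of all genes were called lower. Slc31a2, a copper transporter of endosomes and lysosomes, went from 18.4 ± 0.559 CPM (n = 3) to 12.7 ± 0.898 CPM in cDC1s with RIPK3 debris, a log2FC of -0.54 (SE 0.0964, adjusted p = 5.88e-05). With BimS debris it was at 15.3 ± 2.01 CPM, a log2FC of -0.26 (SE 0.0935, adjusted p = 0.0567).

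Likeness of pattern was described by Pearson's r of log2 CPM over the 17 samples, which share their libraries and fall into cell types and media, so no p is given. Mt1 and Mt2 had an r of 0.944, Mt1 and Slc30a1 one of 0.912, and Mt1 and Mtf1 one of 0.00. Slc39a14 ran against Mt1 with -0.83. The levels of Mt1, Mt2, Slc30a1 and Slc39a14 differed between the subsets with WT medium, which enters these values. No r was taken within a subset. With BimS debris, Mt1 and Slc39a14 were both called higher in cDC2s (log2FC 0.81 and 0.53). In cDC1s they had 0.97 and 0.01, of which the latter was not called. Among genes with a mean log2 CPM of at least 3, those most like Mt1 were Arap1 (0.981), Gltp (0.978) and Lgals3 (0.976), and those most like Slc30a1 were Cds2 (0.971), Trafd1 (0.968) and Rnf115 (0.965). For Mt2 they were Skap2 (0.960), Gltp (0.957) and Aldh9a1 (0.957), and for Slc39a14 Slc25a51 (0.985), Kdm6b (0.984) and Msl2 (0.981). The closest gene had an r of 0.921 for Slc30a4 (Pcmtd1), 0.905 for Slc39a10 (Socs7) and 0.733 for Mtf1 (Lztfl1).

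Markers of other cell types were set beside these results. Of 10 epithelial genes that could mark TC-1 RNA, 9 are in the table (Krt19 is not), and in cDC1s they summed to between 3.64 and 4.33 CPM with WT medium, 3.37 and 4.59 CPM with BimS and 3.97 and 4.72 CPM with RIPK3 debris. Of single genes, Col4a1 averaged 1.00, 0.88 and 1.21 CPM and Sparc 0.44, 0.52 and 0.81 CPM in cDC1s with the 3 media, while Krt8 had at most 3 reads in any cDC1 sample, Krt7 at most 6 and Tm4sf1 at most 2. In cDC2s the list summed to between 31.7 and 39.9, 22.5 and 35.3, and 20.9 and 25.7 CPM for the 3 media, nearly all of it from Cdh1, which averaged 32.7, 25.6 and 20.4 CPM. A list of 8 macrophage genes summed to between 8.39 and 10.4 CPM in cDC1s with WT medium, 4.25 and 4.58 CPM with BimS and 3.54 and 5.41 CPM with RIPK3 debris. The highest of the 8 was Fcgr1, which averaged 5.00, 2.43 and 1.15 CPM, and C1qa had at most 18 reads in any of these samples. In cDC2s the list summed to between 16.9 and 27.6, 17.3 and 20.3, and 14.9 and 18.9 CPM for the 3 media, and Fcgr1 averaged 15.2, 13.4 and 9.77 CPM. The part of these cells in the changes of the zinc genes was not tested. Some members share exon bases with a gene on the opposite strand, and whether the counting used strand is not given in the sources used here. Of the partners with reads counted here, the largest was 1110065P20Rik beside Mtf1, with 57 to 154 reads per sample and at most 12.7% of the reads of Mtf1. The partner of Slc30a1 (1700034H15Rik) had at most 21 reads, that of Slc30a4 (4930417H01Rik) at most 6 and that of Mt2 (Gm45774) at most 1. Slc39a10 shares 318 exon bases with Dnah7c, whose reads were not analysed here.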

How the data were processed

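Polyadenylated RNA of 17 samples was sequenced as paired-end reads. The deposited values used here are raw counts per gene. To make them, the authors trimmed reads (SeqPurge), aligned them to GRCm39 and counted them over Ensembl gene models (gensum), and the submitters' processing notes name STAR 2.7.10a. A second deposited table, of log2 values made from the same counts, was not used. Of the 31239 lines of the count table, 148 carry no gene identifier (0.0258% to 0.0366% of the counts of a sample) and were left out. Symbols and positions came from GENCODE M39 on GRCm39, and the upstream windows from RefSeq (GRCm38.p6), of which each printed stretch was matched to GRCm39 and shown without annotated untranslated bases.

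In R 4.3.3, a gene entered a fit if 50% or more of the samples fitted had a count above 0. Tests were run with edgeR 4.0.16 (quasi-likelihood, robust, TMM), with 19513 genes in the 9 cDC1 samples, 19239 in the 8 cDC2 samples and 19082 in all 17 for the subsets and interactions. Adjustment followed Benjamini-Hochberg (threshold 0.05). The study's model, limma 3.58.1 on log2 counts plus 1 without normalization, does not account for depth and was an alternative here. It was judged by the adjusted threshold used throughout, not by the study's own limits on fold and P-value. The other alternatives were DESeq2 1.42.0, RLE size factors, no filter, a replicate block and leaving out each sample in turn. The fitting script was tested on simulated data. Where a group was left with 1 sample, that sample was assumed to vary like the other groups.

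The members and gene lists were chosen with earlier results of these data known. Named were all 7 members, the genes of the zinc and copper lists called against WT or below the filter, and the 3 genes most like each member by Pearson's r of log2 CPM (prior count 2), of which only the closest is printed for Slc30a4, Slc39a10 and Mtf1. The alternatives for genes of the other lists were added after seeing the data.

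The replicates are numbered in the labels, while no pairing is stated in the methods. It was therefore checked in the data, through correlations between samples after removal of group means. In cDC1s, r was over 0.1 in 9 of 9 pairs of equal number (median 0.324) and in 1 of 18 of unequal number. In cDC2s it was so in 7 of 7 (median 0.426) and 3 of 14. Removing group means lowers r of unequal number where r of equal number is high, so these counts are not independent of each other. The pairs also reuse samples. The numbers were taken to pair samples within a cell type. Between cell types r was over 0.1 in 19 of 24 pairs of equal number (median 0.210) and in 5 of 48 of unequal number. The block of the fit over all 17 samples used the number across both cell types. The main tests left the replicate number out, so their p-values do not use this pairing.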

Additional observations from a re-analysis of the deposited data

Results flagged for a closer look

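Among the 7 genes, Slc30a1 was called in a direct test of whether the response to debris differed between the cell types. With BimS debris against WT medium, its log2 fold change in cDC1s exceeded that in cDC2s by 0.97 (edgeR, adjusted p = 0.0258), and with RIPK3 debris by 1.00 (edgeR, adjusted p = 0.0344). The debris samples of cDC1s were higher than the WT sample of the same number in 3 of 3 pairs for each debris type, and in cDC2s in 3 of 3 pairs for BimS and 2 of 2 for RIPK3, although the log2FC in cDC2s with RIPK3 debris was not called (0.32, edgeR, adjusted p = 0.498). Both calls were lost without replicate 1 or 2 of cDC1 WT or replicate 1 or 3 of cDC2 WT. That for BimS was also lost without replicate 1 or 3 of cDC1 BimS or replicate 1 of cDC2 BimS (7 of 17 fits, 0.82 at the lowest), and that for RIPK3 without replicate 1 or 3 of cDC1 RIPK3 or either cDC2 RIPK3 sample (8 of 17 fits, 0.86 at the lowest). They were lost as well with limma on unnormalised log2 counts (adjusted p = 0.106 and 0.0805). Slc39a14 was not called in this test for BimS by edgeR (-0.52, adjusted p = 0.0848), but was with the replicate block (adjusted p = 0.00970), with DESeq2 (adjusted p = 0.0287) and without the filter (adjusted p = 0.0174).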

How the results depend on the processing

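The 63 differences of the 7 genes (22 called) were recomputed under each alternative. RLE size factors changed no direction or call. With DESeq2, 1 call was lost and 1 gained (4 differences gave no adjusted p), and without the filter 4 were gained. With DESeq2, 141 genes of all were called between RIPK3 and BimS debris in cDC2s (73 with edgeR) and 261 in the interaction for BimS (166 with edgeR), 2 of them members. Without the filter these were 300 and 315 (2 members), with 371 in the interaction for RIPK3 (217 with the filter) and 2 members with RIPK3 debris against WT in cDC2s.

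Limma on unnormalised log2 counts lost 6 calls, gained 1 and turned 6 directions, none of a call. It shifted the median log2FC of all genes to -0.12 with RIPK3 debris against WT in cDC1s, -0.17 in cDC2s and 0.16 between the subsets, and the split of calls moved with it. Of them, 27.9% were higher with RIPK3 debris in cDC1s (50.5% with edgeR), 22.8% in cDC2s (54.5%) and 42.1% with BimS debris in cDC2s (54.3%). Between RIPK3 and BimS debris 14.4% were higher in cDC1s (46.7%) and 11.5% in cDC2s (42.5%), between the subsets 64.3% (48.7%), and in the interactions 83.6% (64.5%) for BimS and 81.7% (58.1%) for RIPK3. It called 1510 genes with BimS debris in cDC1s (2576 with edgeR), 403 between the debris types in cDC1s (810), 148 in cDC2s, and 67 and 109 in the interactions, with 0 members in both. Turned were Slc39a14 with BimS in cDC1s (-0.0208), Mtf1 in cDC2s with BimS (-0.00876), with RIPK3 (-0.0594) and between them (-0.0506), Slc39a10 with RIPK3 in cDC2s (-0.0905) and the BimS interaction of Slc30a4 (0.0221).

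The replicate block gained 7 calls, given beside their results. It turned Slc39a10 with RIPK3 in cDC2s (-0.0789) and changed no other call. Of all genes it called 1730 between the debris types in cDC1s (5 members), 4103 with BimS (1349 without it), 4126 with RIPK3 (1387 without it, 2 members with it) and 2755 between them in cDC2s, and 443 (2 members) and 449 in the interactions.

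Leaving out 1 sample kept direction and call in 626 of the member differences so recomputed, lost the call in 42, gained it in 10 and turned the direction in 36, none of them a called one. All genes called ranged from 489 to 1027 between the debris types in cDC1s (members 1 to 4), from 783 to 1504 with BimS in cDC2s (members 1 to 4), from 622 to 1819 with RIPK3 in cDC2s (members 0 to 2), from 0 to 214 between them, and from 93 to 234 (members 0 to 2) and 111 to 258 (members 0 to 1) in the interactions. In cDC1s, log2FC values ranged from -0.0381 to 0.00690 for Mtf1 and -0.0311 to 0.0764 for Slc39a14 with BimS, from -0.342 to 0.281 for Mt2 with RIPK3 (positive without WT replicate 2), and from -0.235 to 0.0152 for Slc39a10 between debris types. In cDC2s, the ranges were -0.336 to 0.0534 for Slc39a10 with BimS, -0.352 to 1.92 for Mt2 and -0.139 to 0.251 for Slc39a10 with RIPK3, and -0.112 to 0.0317 for Slc30a4 and -0.0939 to 0.0117 for Slc39a14 between debris types. Between the subsets they were -0.0130 to 0.0619 for Mtf1 and -0.0719 to 0.111 for Slc30a4. In the BimS interaction they were -0.0792 to 0.343 for Mt1, -2.15 to 0.142 for Mt2, -0.0980 to 0.0910 for Slc30a4 and -0.357 to 0.0319 for Slc39a10, and in the RIPK3 interaction -0.0801 to 0.165 for Mt1, -2.10 to 0.184 for Mt2 and -0.0284 to 0.0534 for Mtf1. The fitted values of Mt2 that involve cDC2s rest on 0 to 6 reads per sample and are no measure of size. The causes were not tested. In cDC2s, Mt2 and Mt3 had at most 8 reads in any sample, which limits what can be said of them. The cDC2 samples held 16095159 to 20240545 reads on genes, and the cDC1 samples 17556976 to 21645289.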
